A study of Mus musculus with 18 samples.

Results

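The transcription factor p53 and 9 of its known target genes were followed through all 18 RNA-seq libraries of the series. The 10 genes were chosen by name: Trp53, which encodes p53, and Mdm2, Cdkn1a, Ccng1, Zmat3, Phlda3, Sesn1, Aen, Plk2 and Perp. All 10 passed the minimum mean value of 10, among 18511 genes tested in the endothelial libraries and 11602 tested in the EO771 libraries. The study compared 6 groups of 3 mouse libraries. BEC normal libraries came from blood vessel endothelial cells of the mammary fat pad, and BEC tumour libraries from blood vessel endothelial cells of EO771 tumours grown in that fat pad. HEC normal libraries came from high endothelial cells of tumour-free mice, sorted from the inguinal lymph nodes, and HEC tumour libraries from those of tumour-bearing mice, with the tissue labelled as lymph node metastases. EO771 cells themselves, a C57BL/6 breast cancer line, made up 2 more groups in culture, given 100 nM 12-HETE, the arachidonic acid product of the lipoxygenase ALOX12, or its vehicle of 2% DMSO in saline for 48 h. The study's exome sequencing listed Trp53 as mutant in EO771 cells, and the mutation is not named in the sources used here.

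The mice were female C57BL/6 animals obtained at 5 to 6 weeks of age, with no transgene named for these groups, and the age at sorting is not given in the sources used here. All endothelial cells were sorted as CD45- CD31high, and HECs and BECs were separated by peripheral node addressin (PNAd), the sugar epitope that marks high endothelium. The tissues were digested for 30 min (fat pad), 120 min (tumour) or 60 min (lymph node). The enzymes differed too: collagenase I for fat pad, collagenases I and III with hyaluronidase for tumour, and collagenase P, dispase II and DNase I for lymph node. HECs and BECs thus differed in organ, PNAd, digestion time and enzymes together, and these cannot be told apart. The study's figure legends give 3 independent experiments for the endothelial and for the EO771 RNA-seq. Neither they nor the labels say whether a replicate was 1 mouse, a pool or 1 culture dish. The p-values thus measure the spread between these libraries, which may not be that between mice.

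p53 is a transcription factor that is made and degraded continuously in unstressed cells. MDM2, an E3 ubiquitin ligase whose gene p53 itself activates, marks p53 for degradation, and stress signals such as DNA damage break that loop and let p53 accumulate without a need for more Trp53 mRNA. The accumulated protein activates genes that stop the cell cycle (Cdkn1a), restrain growth signalling (Phlda3, Sesn1), act on RNA (Zmat3) or promote cell death (Aen, Perp). For that reason the mRNA of Trp53 and the mRNAs of its targets are separate readouts. Several of these targets also answer to signals that do not pass through p53, Plk2 and Cdkn1a to serum and growth factors among them.

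The p53 protein binds DNA at pairs of a short half-site, and the promoter sequences of the 10 genes are shown first because they place that element among the genes followed. RefSeq promoter windows (GRCm38.p6, 250 bases before to 50 bases after a gene's start) were at hand for 8 of the 10 genes. Zmat3 and Perp had no entry. The p53 half-site consensus of 10 letters, which reads alike on both strands, was searched without mismatch. A half-site lay in a window of 6 of the 8 genes. Of all 27025 genes in the table, 9.55% had a half-site in a window, and of all 32851 windows 8.36% held one. A pair of half-sites with a spacer of at most 13 bases was in 0.0731% of all windows, and among the 10 genes only Cdkn1a had one. Its half-sites start 73 and 51 bases before the upstream of 2 annotated Cdkn1a starts, with 12 bases between them. The 10 bases directly after the second half-site, with no spacer, depart from the consensus in their first letter alone. The search without mismatch did not count them, and they are left in lower case. The downstream start lies 2790 bases further on, and its own window held no half-site. The upstream window of Cdkn1a, chr17:29090729-29091028 on the plus strand, is printed whole with the half-sites in capitals.

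Cdkn1a: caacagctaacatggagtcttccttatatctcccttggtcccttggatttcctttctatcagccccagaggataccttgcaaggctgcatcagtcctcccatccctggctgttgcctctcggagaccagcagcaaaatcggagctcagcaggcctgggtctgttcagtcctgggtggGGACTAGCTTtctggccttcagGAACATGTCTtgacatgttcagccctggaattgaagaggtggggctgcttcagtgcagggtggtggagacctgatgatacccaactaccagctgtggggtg

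Single half-sites were found for Trp53, Mdm2, Ccng1, Aen and, at 1 of its 2 starts, Sesn1. They are printed with 20 bases on either side, 5′ to 3′ on the strand of the gene and with the half-site in capitals, so that their letters can be set beside the Cdkn1a pair. The positions are chr11:69580264-69580313 (plus strand) for Trp53, chr10:117710915-117710964 (minus strand) for Mdm2, chr11:40755442-40755491 (minus strand) for Ccng1, chr7:78895917-78895966 (plus strand) for Aen and chr10:41887246-41887295 (plus strand) for Sesn1. The windows of Phlda3 and Plk2 held no match. A match is a run of letters, not a bound site, and sites outside these windows were not searched.
Trp53: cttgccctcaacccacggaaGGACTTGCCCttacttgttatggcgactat
Mdm2: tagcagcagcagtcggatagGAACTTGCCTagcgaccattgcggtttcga
Ccng1: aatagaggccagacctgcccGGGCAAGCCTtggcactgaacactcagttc
Aen: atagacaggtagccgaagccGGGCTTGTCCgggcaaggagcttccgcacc
Sesn1: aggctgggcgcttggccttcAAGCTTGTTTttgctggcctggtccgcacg

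The endothelial values summed to 56.4 to 79.4 M per library and the EO771 counts to 17.3 to 18.6 M. Low endothelial values fell in steps of about 3.74 units, and dividing the totals by each library's step left 15 to 21.2 M. The 2 tables were normalised separately, so a level in EO771 cells is only set beside an endothelial one. The summed endothelial markers lay between 2494 and 3654 CPM in all 12 sorted libraries, but single markers were less even. Cldn5 averaged 257 CPM in BEC normal, 0.354 CPM in BEC tumour, 1.09 CPM in HEC normal and 1.04 CPM in HEC tumour. From BEC normal to BEC tumour 7 of the 10 endothelial markers fell and 2 rose by an adjusted p under 0.05. The high endothelial markers summed to 984 to 3061 CPM in the HEC libraries and 16.2 to 37.3 CPM in the BEC libraries, although Chst2 and Ccl21a of that list were at 0 in all 6 HEC libraries. In the BEC tumour libraries the leukocyte markers summed to 1456 to 1932 CPM, against 110 to 133 CPM in BEC normal and 357 to 510 CPM in the HEC libraries. Of the HEC leukocyte sum, Cd68 made up 488 CPM in HEC normal and 360 CPM in HEC tumour on average, with 7 of the 10 markers under 1 CPM. The fibroblast and pericyte markers summed to 903 to 920 CPM in BEC normal, 103 to 135 CPM in BEC tumour, at most 27.9 CPM in HEC normal and at most 12.5 CPM in HEC tumour. Acta2, a contractile gene of pericytes and smooth muscle, averaged 622 CPM in BEC normal. Chst4, which is restricted to high endothelium, was at 0.0596 CPM in 1 HEC normal library and at up to 297 CPM in the others of that group. A list of 10 proliferation genes summed to 2001 to 2210 CPM in BEC normal and 2676 to 2943 CPM in BEC tumour. It summed to 2360 to 2399 CPM in HEC normal and 2337 to 2381 CPM in HEC tumour, beside 1940 to 2521 CPM in EO771 vehicle.

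On the length-scaled level (TPM, the transcript share scaled for length), Cdkn1a was the most abundant of the 10 mRNAs in all 4 endothelial groups, from 362 ± 15.1 TPM in BEC normal to 653 ± 10.8 TPM in HEC tumour (mean ± SD, n = 3). Phlda3 came next in each of these groups and Ccng1 after it. Trp53 itself lay between 157 and 177 TPM in the endothelial means. Zmat3 was at 20.5 to 31.9 TPM and Sesn1 at 2.64 to 11.3 TPM. In EO771 cells the order was different. Perp led with 434 ± 13.8 TPM in vehicle, and Sesn1 was the lowest with 4.22 ± 1.05 TPM.

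**Figure D1:**
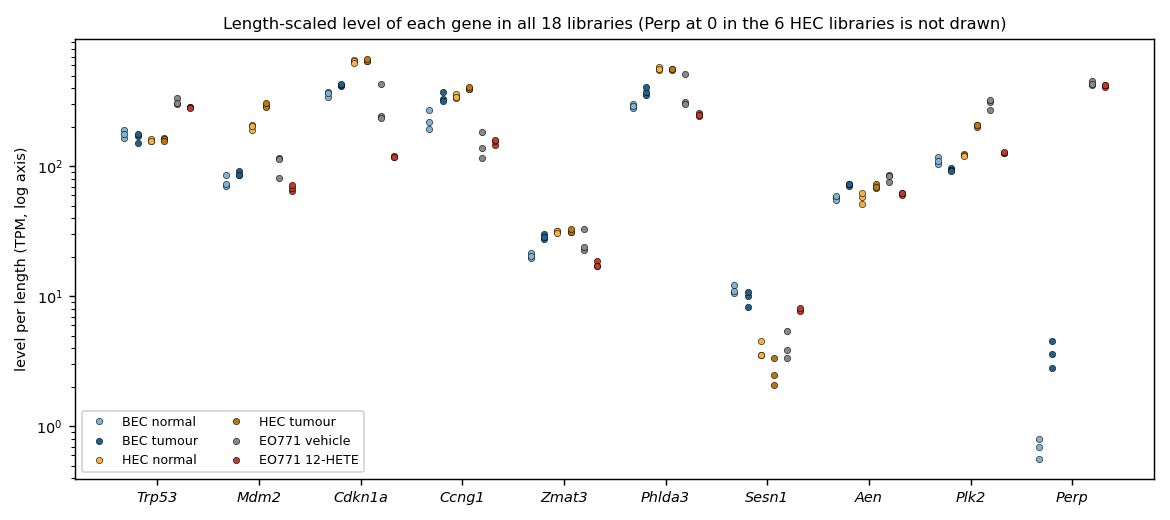
Length-scaled level (TPM, log axis) of the 10 genes, with a dot for each of the 18 libraries coloured by group. Cdkn1a leads in the endothelial groups, reaching 653 TPM in HEC tumour, whereas Perp leads in EO771 cells at 434 TPM in vehicle and is absent from the plot for the HECs, where it was at 0.

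Trp53 (chr11:69580359-69591873, GRCm38) encodes p53. In normalised values, which are deposited values divided by a size factor for each library, it read 17456, 20841 and 19096 in the 3 BEC normal libraries and 17212, 15182 and 18374 in BEC tumour. It read 17002, 17889 and 17144 in HEC normal and 16668, 16326 and 15641 in HEC tumour. The 4 groups lay close together, and of the 4 pairs compared only HEC tumour and HEC normal did not overlap. No endothelial comparison passed an adjusted p of 0.05 with DESeq2 in the fit of all 12 libraries. The largest difference was that of BEC tumour from BEC normal, log2 −0.18 with a 95% interval of −0.35 to −0.0072. Its adjusted p was 0.0722, and it passed in 2 of 12 alternative settings. The log2 difference of HEC normal from BEC normal was −0.14 with a 95% interval of −0.31 to 0.028, and that of HEC tumour from BEC tumour was −0.062 with an interval of −0.23 to 0.11. The annotation also holds a Trp53 pseudogene, and how its reads were shared out is not given in the sources used here.

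Mdm2 (chr10:117688875-117710758) encodes the ligase that closes the feedback loop on p53. It read 11324, 9778 and 10032 in BEC normal and 28658, 26727 and 28352 in HEC normal. In the tumour-bearing mice it read 11646, 10879 and 11226 in BECs and 36898, 36254 and 38095 in HECs. Every HEC library stood above every BEC library, and the HEC tumour libraries stood above the HEC normal ones. HEC normal exceeded BEC normal 2.69-fold (log2 1.43 ± 0.066 SE, adjusted p = 3.12e-102). In tumour-bearing mice the excess was 3.30-fold (log2 1.72 ± 0.066, adjusted p = 2.33e-148). Mdm2 rose 1.33-fold from HEC normal to HEC tumour (adjusted p = 5.52e-09), whereas the BEC groups overlapped and differed by log2 0.12 (adjusted p = 0.129). The tumour change in HECs exceeded that in BECs by log2 0.29 ± 0.093 (adjusted p = 0.0046).

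Cdkn1a (chr17:29090976-29100727) encodes p21, an inhibitor of cyclin-dependent kinases and the classical arrest target of p53. Its exons overlap another gene on the opposite strand over 273 bases, and whether counting used the strand is not given in the sources used here. It read 31687, 36043 and 35033 in BEC normal, and 36751, 36953 and 39136 in BEC tumour. In HECs it read 63023, 62826 and 60725 without tumours and 57867, 57088 and 58082 with them. Neither pair of HEC and BEC groups overlapped. Without tumours Cdkn1a was 1.82-fold higher in HECs than in BECs (log2 0.86 ± 0.056, adjusted p = 8e-52) and with tumours 1.53-fold higher (log2 0.62 ± 0.056, adjusted p = 7.29e-27). It rose by log2 0.14 ± 0.056 in BECs with tumours (adjusted p = 0.0317), a call that 8 of 12 alternative settings kept. In HECs the value was −0.11 (adjusted p = 0.123).

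Ccng1 (chr11:40748552-40755311) encodes cyclin G1, a partner of MDM2 and of a phosphatase in p53 feedback. Its values were 24794, 18634 and 20792 in BEC normal and 32205, 28715 and 28456 in BEC tumour. They were 34139.7, 32104 and 32643 in HEC normal and 34479, 34565 and 34981 in HEC tumour. The BEC normal libraries lay lowest and spread most. HEC normal exceeded BEC normal 1.54-fold (log2 0.62 ± 0.099, adjusted p = 9.88e-10), and Ccng1 rose 1.39-fold from BEC normal to BEC tumour (adjusted p = 4.9e-06). The excess of HEC tumour over BEC tumour was log2 0.22 ± 0.098 (adjusted p = 0.048), which 5 of 12 alternative settings kept past the threshold.

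Plk2 (chr13:110395046-110400844) encodes a polo-like kinase that acts in centriole duplication and is also known as a serum-inducible gene. It read 13690.0, 12725 and 13344 in BEC normal and 10874, 10382 and 10518 in BEC tumour. It read 15234, 15059.5 and 14599 in HEC normal and 23262, 22489 and 23036 in HEC tumour. No pair of the 4 groups overlapped, and HEC tumour stood far above the others. Plk2 fell in BECs with tumours (log2 −0.32 ± 0.043, adjusted p = 6.46e-13) and rose 1.53-fold in HECs with tumours (log2 0.62 ± 0.043, adjusted p = 4.07e-44). The difference of these changes was log2 0.94 ± 0.061 (adjusted p = 1.95e-51), the largest of the 10 genes apart from Perp, whose difference rests on groups at 0. HEC tumour thus exceeded BEC tumour 2.16-fold (adjusted p = 3.06e-144), while HEC normal exceeded BEC normal only 1.13-fold (adjusted p = 0.000129).

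Zmat3 (chr3:32334792-32366014) encodes an RNA-binding zinc finger protein. In BECs its values were 6339.7, 6104 and 6241 without tumours and 7773, 8625 and 8367 with them. In HECs they were 9910.0, 9955 and 9558 without tumours and 8892, 8980.0 and 9338 with them. No pair of groups overlapped, and the order was HEC normal, HEC tumour, BEC tumour, BEC normal. The step between the HEC groups did not pass (log2 −0.11, adjusted p = 0.0783). Zmat3 rose in BECs with tumours (log2 0.41 ± 0.052, adjusted p = 6.99e-14) and was higher in HECs than in BECs without tumours (log2 0.65 ± 0.052, adjusted p = 9.58e-35). The excess of HEC tumour over BEC tumour, log2 0.14 ± 0.052 (adjusted p = 0.0189), was kept by 7 of 12 alternative settings.

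Phlda3 (chr1:135766119-135769136) encodes a pleckstrin homology protein that competes with AKT for membrane lipids. Its values were 11278, 12818 and 12176 in BEC normal and 13728, 14368 and 16163 in BEC tumour. In HECs they were 23328, 24884 and 23991 without tumours and 21905, 21282 and 21329 with them. The order of the groups was the same as for Zmat3, again without overlap. HEC normal exceeded BEC normal 1.99-fold (log2 0.99 ± 0.074, adjusted p = 4.8e-40) and HEC tumour exceeded BEC tumour 1.46-fold (adjusted p = 1.37e-12). Phlda3 rose 1.22-fold in BECs with tumours (adjusted p = 0.000306), and in HECs the change was log2 −0.16 (adjusted p = 0.0721).

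Sesn1 (chr10:41809935-41908424) encodes sestrin 1, a stress protein that restrains mTORC1 signalling. It went the other way. It read 1092, 1192 and 1313 in BEC normal and 985, 1061 and 842 in BEC tumour, against 493, 390 and 386 in HEC normal and 207, 333 and 244 in HEC tumour. All 6 HEC libraries lay below all 6 BEC libraries. HEC normal was 2.84-fold lower than BEC normal (log2 −1.50 ± 0.19, adjusted p = 1.37e-14) and HEC tumour 3.68-fold lower than BEC tumour (log2 −1.88 ± 0.19, adjusted p = 3.42e-21). Sesn1 also fell from HEC normal to HEC tumour (log2 −0.69 ± 0.20, adjusted p = 0.00186), and the BEC difference of log2 −0.32 did not pass (adjusted p = 0.145).

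Aen and Perp are the targets linked to cell death. Aen (chr7:78895854-78911209), a nuclease of apoptosis, read 8804, 8733 and 9243 in BEC normal and 9129, 8212 and 9917 in HEC normal. These overlapped, and the log2 difference was 0.026 with a 95% interval of −0.12 to 0.17. Aen rose 1.17-fold in BECs with tumours (adjusted p = 0.00548). In HECs with tumours the difference was log2 0.16 (adjusted p = 0.0839). HEC tumour and BEC tumour overlapped and differed by log2 −0.043 with an interval of −0.19 to 0.11.

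Perp (chr10:18845020-18857073) encodes a membrane protein of desmosomes that is known as a p53 effector of apoptosis and is abundant in epithelia. It was at 0 in all 6 HEC libraries. The BEC normal libraries read 35.3, 42.4 and 29.5 and BEC tumour read 135, 173 and 228. Against a floor of 3 units per library, the BEC normal mean of Perp was at least 11.9-fold higher than that of HEC normal, and the BEC tumour mean at least 59.6-fold higher than that of HEC tumour. Counting a step as a single fragment lowers these bounds to 3.18-fold and 15.9-fold. Perp rose 5.02-fold from BEC normal to BEC tumour (log2 2.33 ± 0.46, adjusted p = 1.4e-06), without overlap. The epithelial and tumour cell markers moved the same way: 6 of 7 tested rose past 2-fold, and their sum was 3.61, 5.40 and 6.92 CPM in the BEC normal libraries and 20.2, 24.1 and 94.2 CPM in the BEC tumour libraries, whose Perp values rank in the same order. In BEC normal the ranks did not match, as the library with the highest sum had the lowest Perp value. Of the leukocyte markers, 7 of 9 tested also rose past 2-fold. Their sums of 1932, 1849 and 1456 CPM in the BEC tumour libraries ranked opposite to Perp. In the HEC libraries the epithelial markers summed to 27.9 to 34.1 CPM, nearly all of it Krt19 at 27.3 and 31.2 CPM on average in HEC normal and HEC tumour, with Krt5 at 0 in both groups. The part of other cells in the rise of Perp was not tested, and in bulk libraries more cells of a type and more RNA per cell cannot be told apart.

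**Figure D2:**
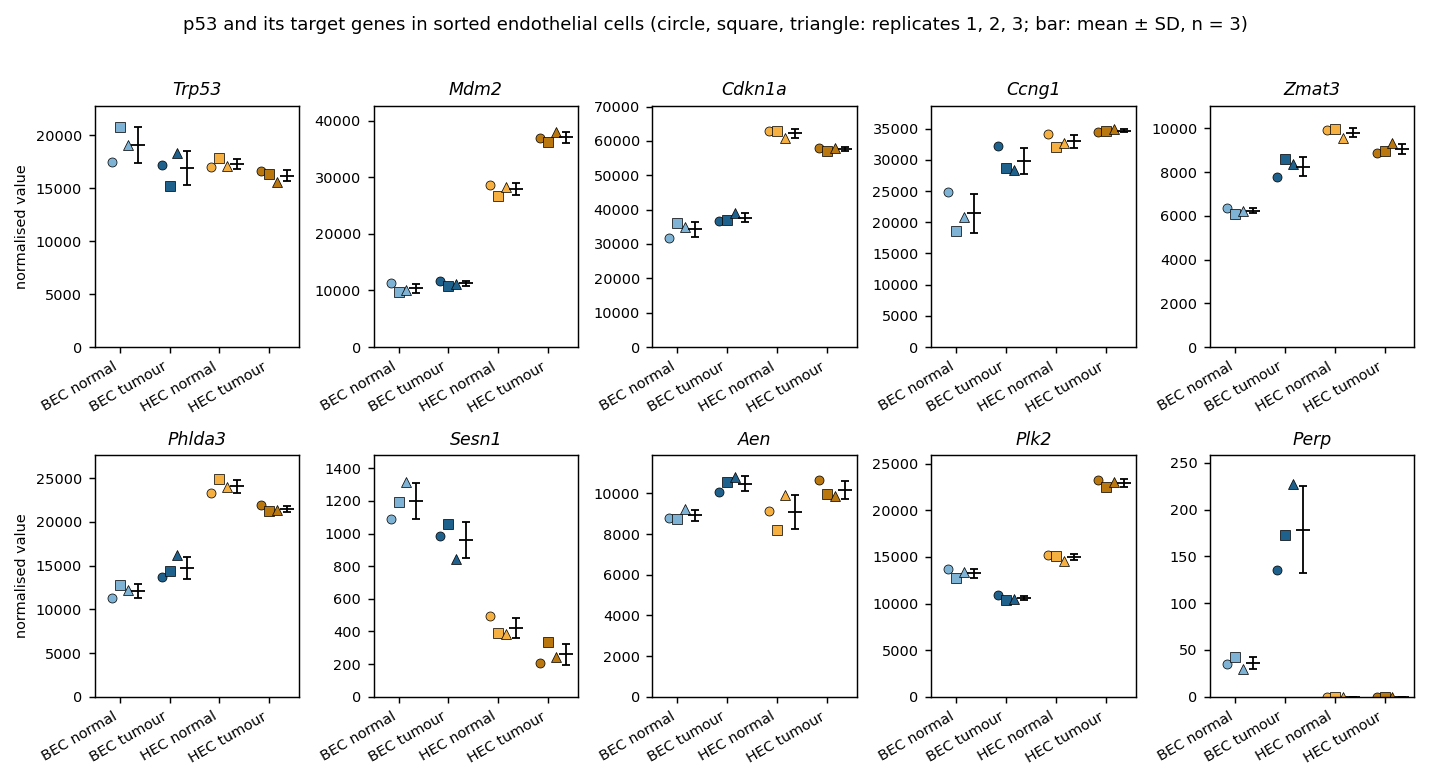
Normalised values of the 10 genes in the 12 endothelial libraries (axes start at 0), with a symbol for each replicate and a bar for mean ± SD (n = 3). Mdm2, Cdkn1a and Phlda3 stand higher in all 6 HEC libraries than in the BECs, Sesn1 stands lower, Plk2 is highest in HEC tumour at 22489 to 23262, and Perp is at 0 in every HEC library.

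Across the 10 genes, HEC normal differed from BEC normal at an adjusted p under 0.05 in 8, of which 6 were higher (Mdm2, Cdkn1a, Ccng1, Zmat3, Phlda3, Plk2) and 2 lower (Sesn1, Perp). Of all 18511 genes tested, 31.4% were higher and 31.9% lower by the same rule. Past 2-fold the counts were 1 higher (Mdm2) and 2 lower, beside 17.1% and 15.1% of all genes. The median log2 difference of the 10 genes was 0.40, and that of all genes was 0.0046. The immediate early genes, which rise on stimulation or handling, were higher past 2-fold in 6 of 10 and lower in 1. Their sum was 1327 to 1443 CPM in HEC normal and 510 to 576 CPM in BEC normal. Of the fibroblast and pericyte markers, 8 of 9 tested were lower past 2-fold. By the adjusted p, 5 of 10 proliferation genes were higher and 4 lower, with a median of log2 0.076. The part of these lists in the differences was not tested.

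In the tumour-bearing mice, HECs differed from BECs in 8 of the 10 genes, again with 6 higher and 2 lower, beside 25.9% and 28.4% of all genes. Past 2-fold, Mdm2 and Plk2 were higher and Sesn1 and Perp lower, beside 11.2% and 10.7% of all genes. The median of the 10 genes was log2 0.18, against 0.0060 for all genes. The 2 HEC to BEC comparisons share no library, but share the estimate of the spread. The immediate early genes were higher past 2-fold in 7 of 10, with sums of 1607 to 1626 CPM in HEC tumour and 580 to 619 CPM in BEC tumour, and 8 of 9 fibroblast and pericyte, 8 of 9 leukocyte and 6 of 7 epithelial markers were lower past 2-fold. By the adjusted p, 7 of 10 proliferation genes were lower and none higher, with a median of log2 −0.40, and none passed 2-fold. The part of these lists was not tested either.

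HEC tumour differed from HEC normal in 3 of the 10 genes, a share near that of all genes. Mdm2 and Plk2 rose and Sesn1 fell, beside 16.9% of all genes higher and 18.5% lower at the same adjusted p. None of the 10 passed 2-fold with DESeq2 or edgeR, beside 4.58% and 3.21% of all genes, and 6 had an unadjusted p under 0.05. The median of the 10 genes was log2 −0.049, against 0.019 for all genes. When only the 6 HEC libraries were fitted, 7 of the 10 passed the adjusted p instead of 3, with Cdkn1a (log2 −0.11), Zmat3 (−0.12), Phlda3 (−0.17) and Trp53 (−0.10) added as lower. In the full fit 4 of 9 fibroblast and pericyte markers fell past 2-fold. By the adjusted p, 3 of 10 immediate early genes rose and 1 fell, and 1 of 10 proliferation genes rose and 5 fell. The part of these lists was not tested. Digestion time and enzymes were the same in both HEC groups.

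BECs changed in 7 of the 10. Cdkn1a, Ccng1, Zmat3, Phlda3, Aen and Perp rose and Plk2 fell, beside 26.5% of all genes higher and 27.2% lower. Past 2-fold only Perp rose, beside 12.4% of all genes higher and 10.8% lower. The median of the 10 genes was log2 0.18, against 0.0083 for all genes. In the same comparison 8 of 9 fibroblast and pericyte markers fell and 1 rose past 2-fold, while 7 of 9 leukocyte and 6 of 7 epithelial markers rose past it. The immediate early genes fell past 2-fold in 4 of 10 and rose in 2, with a median of log2 −0.57. By the adjusted p, 5 of 10 proliferation genes rose and 2 fell, with a median of log2 0.29. The part of these lists was not tested. BEC tumour cells had the longest and BEC normal cells the shortest digestion, with different enzymes, and neither can be told apart from the tumour.

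The tumour change itself differed between HECs and BECs in 6 of the 10 genes. The HEC change less the BEC change was positive for Mdm2 and Plk2 and negative for Cdkn1a (log2 −0.24 ± 0.079), Ccng1 (−0.40 ± 0.14), Zmat3 (−0.52 ± 0.074) and Phlda3 (−0.45 ± 0.10), with adjusted p between 1.93e-11 and 0.00983 for these 4. By the same test the difference was positive in 22.9% and negative in 23.8% of all genes. None of the 10 differed past 2-fold with DESeq2 or edgeR, beside 11.2% and 12.1% of all genes, and the same number, 6, had an unadjusted p under 0.05. These 4 genes rose in BECs with tumours. In HECs, where their level without tumours was above that of BECs, none of the 4 passed in the fit of all 12 libraries, and Cdkn1a, Zmat3 and Phlda3 passed as falls when only the HEC libraries were fitted. For the immediate early genes the HEC change less the BEC change was positive past 2-fold in 5 of 10 and negative in 1 (median log2 0.74). By the adjusted p it was negative in 8 of 10 proliferation genes and positive in none (median log2 −0.36). The part of either list was not tested.

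**Figure D3:**
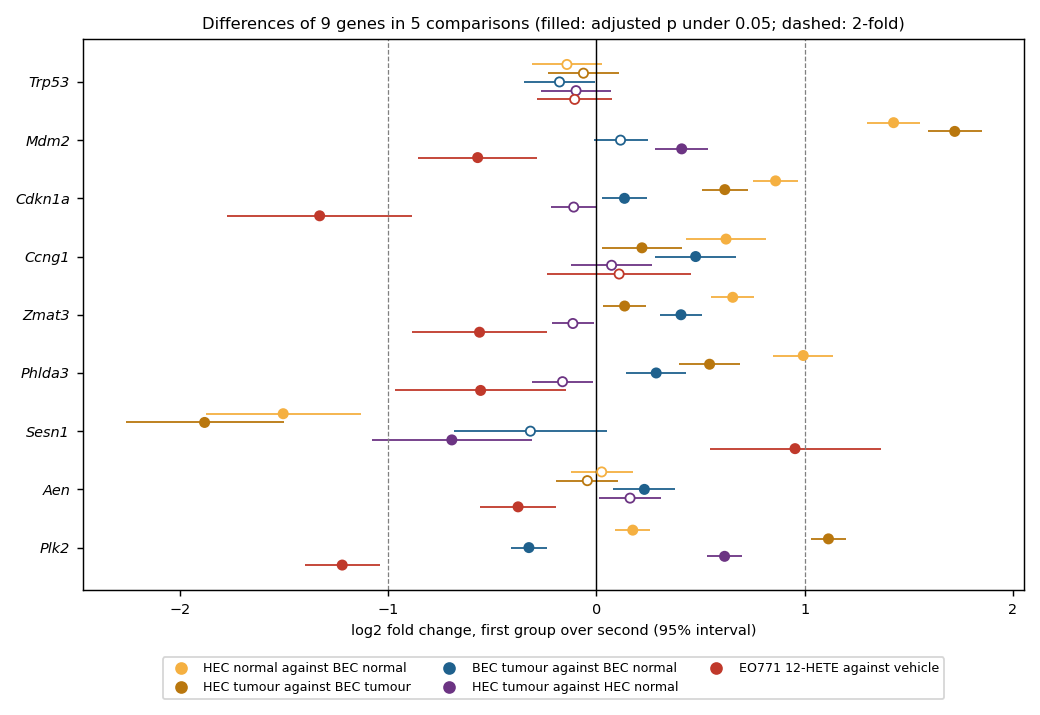
Log2 fold change of 9 genes in 5 comparisons, each with its 95% interval, filled where the adjusted p was under 0.05 and with dashed lines at 2-fold. Trp53 runs from log2 −0.18 to −0.062 over the 5 comparisons. Mdm2 reaches log2 1.72 in HEC tumour over BEC tumour, and Cdkn1a and Plk2 lie beyond −1 in EO771 cells given 12-HETE. Perp is left out because its HEC groups were at 0.

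Other genes of the p53 pathway were counted from 5 lists, of regulators and of targets in arrest and feedback, apoptosis, DNA repair, and metabolism. Of 33 further targets tested, 18 were higher and 5 lower in HECs than in BECs without tumours, 9 and 1 of them past 2-fold. Over all genes the shares were 31.4% and 31.9%, and 17.1% and 15.1% past 2-fold. The arrest and feedback list had 7 of 8 higher and none lower. The apoptosis list had 2 of 9 higher and 2 lower, and the DNA repair list 3 of 6 higher and 1 lower. In the metabolism list 6 of 10 were higher and 2 lower. Gdf15, a secreted stress cytokine, averaged 45215 ± 1708 in HEC normal and 2971 ± 373 in BEC normal, a 15.2-fold difference. Bbc3, which encodes the death protein PUMA, was 6.87-fold higher in HEC normal (adjusted p = 8.4e-140). Pmaip1, which encodes NOXA, another death protein, was 14.6-fold lower (56.8 ± 15.1 against 832 ± 251). Of 12 regulators tested, 3 were higher and 4 lower, which is near the share of all genes, and Cdkn2a had the largest difference of all the lists. Its locus encodes ARF, which holds MDM2 away from p53, and the kinase inhibitor p16, which the gene counts do not separate. Cdkn2a averaged 10537 ± 925 in the BEC normal and 2423 ± 742 in the BEC tumour libraries. The HEC means were 190 ± 21.4 without tumours and 146 ± 9.41 with them. In HEC normal it was 55.4-fold lower than in BEC normal (adjusted p = 2.08e-178). Its groups rank in the same order as the fibroblast and pericyte sums, and the part of such cells was not tested.

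In BECs with tumours 16 of the 33 targets rose and 7 fell, beside 26.5% and 27.2% of all genes, and 7 and 2 passed 2-fold, beside 12.4% and 10.8%. Gdf15 rose 6.30-fold, to 18695 ± 492, and Trp53cor1, the p53-induced noncoding RNA known as lincRNA-p21, rose 3.66-fold (adjusted p = 2.22e-24). Pmaip1 fell by 2.20 (SE 0.33) and Cdkn2a by 2.12 (SE 0.19) on the log2 scale. In HECs with tumours 4 of the 33 targets rose and 10 fell, beside 16.9% and 18.5% of all genes, and none passed 2-fold with DESeq2 or edgeR (17 had an unadjusted p under 0.05). Between HEC tumour and BEC tumour 15 were higher and 11 lower, beside 25.9% and 28.4% of all genes. The arrest and feedback list had 4 of 8 higher, 1 of them past 2-fold, and 2 lower in that comparison. Ddit4, an inhibitor of mTORC1, was 2.84-fold higher in HEC tumour and Trp53inp1, a nuclear stress protein, 2.07-fold. Pmaip1 was 3.83-fold and Cdkn2a 16.6-fold lower. The HEC change with tumours less the BEC change was negative for 14 of the 33 targets, led by Gdf15 (log2 −3.12 ± 0.12) and Bbc3 (−2.07 ± 0.15), and positive for 6, led by Pmaip1 (1.93 ± 0.49), beside 23.8% and 22.9% of all genes. It was also positive for Cdkn2a (1.74 ± 0.29). Pmaip1 and Cdkn2a fell in BECs, and their HEC values of −0.27 and −0.38 did not pass, so the positive differences rest on the falls in BECs.

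The EO771 comparison asked what 12-HETE does to the tumour cells. One vehicle library stood apart for the genes followed here. Set against the mean of the other vehicle libraries, vehicle replicate 2 was 1.87-fold higher for Cdkn1a, 1.74-fold for Phlda3, 1.52-fold for Ccng1 and 1.46-fold for Zmat3, and it was lower only for Sesn1, at 0.760 of their mean. It held the highest vehicle value in 9 of the 10 genes, beside 40.1% of all genes tested. Cdkn1a lay above 97.5% of all genes and Phlda3 above 96.6% in that ratio. The value without this library is given beside each EO771 result named below. Over all genes the 5th to 95th percentile of that ratio was log2 −0.72 to 0.67 in vehicle replicate 2 and −0.51 to 0.33 in vehicle replicate 1. In 12-HETE replicate 1 it was −0.26 to 0.25. The fit estimated 1 spread per gene for both groups, so the EO771 p-values do not reflect this unequal spread.

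**Figure D4:**
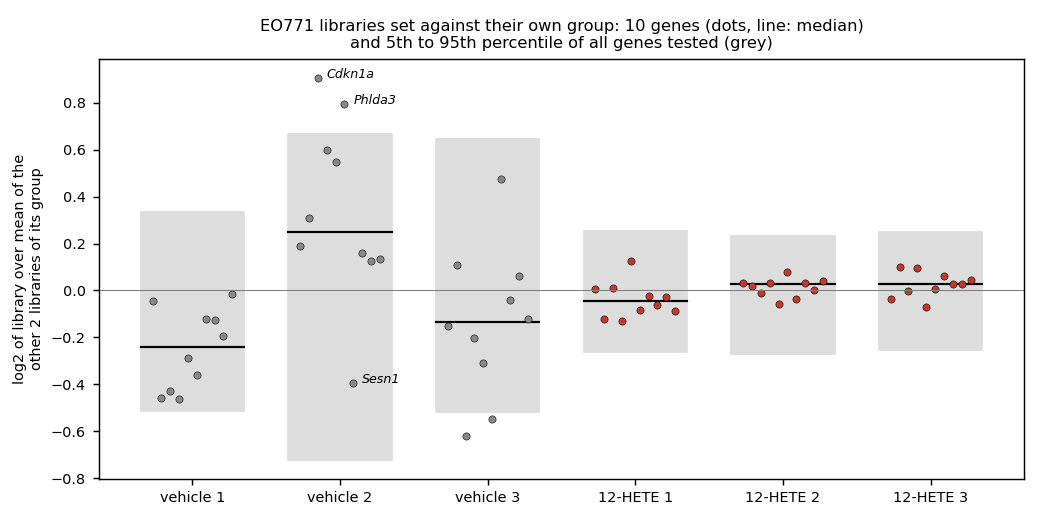
Log2 of each EO771 library over the mean of the other 2 libraries of its group, for the 10 genes (dots, with a line at their median) and for the 5th to 95th percentile of all genes tested (grey). Vehicle replicate 2 has a median of 0.25 over the 10 genes, against −0.24 and −0.14 in the other vehicle libraries and −0.046 to 0.029 in the 12-HETE libraries.

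Trp53 did not pass the test. It read 6566, 7302 and 6241 counts in vehicle and 6250.1, 6332 and 6129 in 12-HETE, with overlap and a log2 difference of −0.10 (95% interval −0.28 to 0.076), or −0.045 without vehicle replicate 2. Mdm2 read 2230.5, 3195 and 2928 in vehicle and 1770.5, 1894 and 1963 in 12-HETE. The lowest vehicle library stood above the highest 12-HETE library. Mdm2 fell by 0.57 (SE 0.15) on the log2 scale (adjusted p = 0.000419), and by 0.47 without vehicle replicate 2.

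Cdkn1a and Plk2 were the genes that changed past 2-fold. Cdkn1a read 4651, 8299 and 4205 in vehicle and 2290.1, 2268 and 2273 in 12-HETE, so the treated libraries were tightly grouped below all vehicle libraries. The log2 change was −1.33 ± 0.23 (adjusted p = 4.77e-08). Without vehicle replicate 2 it was −0.97 ± 0.079 (adjusted p = 1.48e-32), just short of 2-fold. The smaller p goes with the lower SE, as the change itself was smaller. Plk2 read 6559.9, 7605 and 7383 in vehicle and 3041, 3084 and 3125 in 12-HETE, with every vehicle library more than 2-fold above every treated one. Its log2 change was −1.22 ± 0.092 (adjusted p = 1.74e-38) with all libraries and −1.18 without vehicle replicate 2, then the larger of the pair.

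Zmat3 read 1397, 2031 and 1383 in vehicle and 1151, 1058 and 1053 in 12-HETE. It fell by 0.56 (SE 0.17) on the log2 scale (adjusted p = 0.00252), and by 0.36 without vehicle replicate 2. Phlda3 read 2606, 4316 and 2366 in vehicle and 2024, 2182 and 2113 in 12-HETE. Both genes had groups that did not overlap, with vehicle replicate 2 far above the rest. Phlda3 fell by 0.56 (SE 0.21; adjusted p = 0.0194), by 0.25 without vehicle replicate 2, and passed the threshold in 6 of 10 alternative settings. Aen, the nuclease, read 2366, 2698 and 2462 in vehicle and 1877, 1963 and 1959 in 12-HETE and fell by 0.38 (SE 0.092; adjusted p = 0.000224), and by 0.33 without vehicle replicate 2.

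Sesn1 rose, and it was the sole member of the 10 to do so with all libraries. It read 83.1, 72.6 and 109 counts in vehicle and 168, 168 and 175 in 12-HETE, and the groups were well apart. The change was 1.94-fold (log2 0.95 ± 0.21, adjusted p = 3.09e-05) with all libraries. It was 1.77-fold without vehicle replicate 2, the lowest vehicle library for this gene, and 2.19-fold without vehicle replicate 3, the highest. Ccng1 read 2170.1, 3516 and 2468 in vehicle and 2760.4, 2974 and 3062 in 12-HETE. The groups overlapped only through vehicle replicate 2. The log2 difference was 0.11 (95% interval −0.23 to 0.45, adjusted p = 0.631), and without that library Ccng1 rose by 0.33 (adjusted p = 0.00165). Perp read 4441, 4751 and 4225 in vehicle and 4237, 4490.3 and 4503 in 12-HETE, with overlap and a log2 difference of −0.020 (95% interval −0.19 to 0.15), or 0.018 without vehicle replicate 2.

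**Figure D5:**
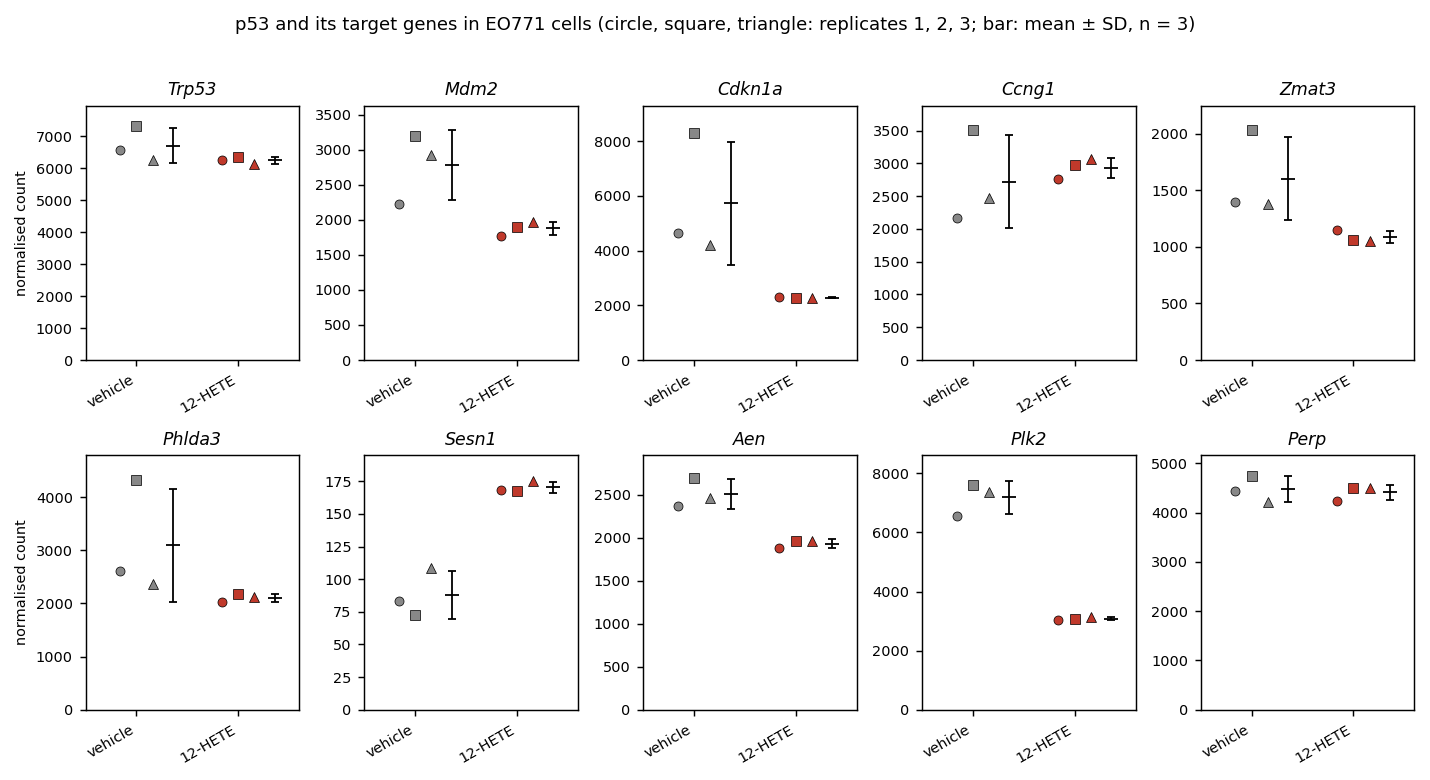
Normalised counts of the 10 genes in EO771 cells given vehicle or 12-HETE (axes start at 0), with a symbol for each replicate and a bar for mean ± SD (n = 3). Plk2 lies between 6559.9 and 7605 in vehicle and between 3041 and 3125 in 12-HETE, Sesn1 rises, and the square of vehicle replicate 2 lies far above the other vehicle libraries for Cdkn1a and Phlda3.

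Of the 10 genes, 1 rose and 6 fell with 12-HETE, beside 22.7% of all 11602 genes tested that rose and 24.2% that fell. Past 2-fold none rose and 2 fell, beside 2.38% and 7.79% of all genes. The median of the 10 genes was log2 −0.47, against 0.0012 for all genes. Without vehicle replicate 2 it was −0.29, with 2 genes higher and 6 lower, and only Plk2 past 2-fold.

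Of 32 further p53 targets tested in EO771 cells, 5 rose and 16 fell with 12-HETE, 11 of the fallen past 2-fold, beside the 22.7%, 24.2% and 7.79% of all genes given above. Without vehicle replicate 2 the counts were 5 and 17, with 8 past 2-fold. Gdf15 fell from 3036 ± 715 to 287 ± 24.3, which is 10.6-fold, or 9.20-fold without vehicle replicate 2. Btg2, an antiproliferative gene, fell 4.50-fold, from 3495 ± 619 to 776 ± 43.5 (adjusted p = 2.7e-49), or 4.06-fold without that library. Of 12 regulators 4 rose and 3 fell, with or without it. Chek1, a checkpoint kinase of replication stress, rose 2.19-fold (adjusted p = 7.82e-10). Without vehicle replicate 2 it rose 1.99-fold and no longer passed 2-fold. The immediate early genes fell past 2-fold in 10 of 10 with or without vehicle replicate 2, with a median of log2 −2.18, or −2.10 without it. Their summed counts were 38553 to 41858 in vehicle and 7871 to 8406 in 12-HETE. Of the proliferation genes 8 of 10 rose, with a median of log2 0.64, and 7 of 10 without that library, with a median of 0.51. The part of these states, and of the Trp53 mutation of EO771 cells, in the fall of the p53 targets was not tested.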

How the data were processed

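The authors aligned reads to GRCm38 with STAR and counted per gene with featureCounts. Their deposited EO771 values are raw counts per gene symbol. The deposited endothelial values are whole numbers in steps of about 3.74 and were used as estimated counts. Whether counting used the strand, and why the values fall in steps, is not given in the sources used here. No value column was left unmapped. Genes with a mean of at least 10 were tested with DESeq2 (version 1.42.0, Wald test, group as the sole term) in 1 fit of the 12 endothelial and 1 of the 6 EO771 libraries, with Benjamini-Hochberg adjustment over all genes tested. A gene rose or fell, or was higher or lower, at an adjusted p under 0.05, and past 2-fold where the absolute log2 fold change also exceeded 1. The difference of the tumour changes was a contrast of the group coefficients. Intervals and floors (3 units) cover counting error or spread between libraries only. TPM used merged exon lengths (GENCODE, GRCm38). Fits were tested on simulated data. Alternatives were edgeR (version 4.0.16), total-count scaling, no filter, other thresholds, fewer libraries and a replicate block. Deviations of same-numbered libraries correlated at r from 0.183 to 0.493 in EO771 and from −0.10 to 0.35 in the endothelial libraries. The labels do not say whether equal numbers pair samples, and these overlapping ranges cannot settle it. The 10 genes and all lists were chosen with earlier results of these data known. All 10 are named. From the 5 wider lists, at most the 2 largest changes in each direction past 2-fold are named per comparison. Marker and state lists are summed.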

Additional observations from a re-analysis of the deposited data

Results flagged for a closer look

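The change with tumours differed between HECs and BECs, by the difference of the group contrasts in the DESeq2 fit, in 6 of the 10 genes. Over all genes tested, 22.9% had a positive and 23.8% a negative difference by the same rule. The HEC change less the BEC change was log2 0.29 for Mdm2 and 0.94 for Plk2, and −0.24 for Cdkn1a, −0.40 for Ccng1, −0.52 for Zmat3 and −0.45 for Phlda3. All 6 kept an adjusted p under 0.05 in each of 17 alternative settings. Plk2 fell in BECs and rose in HECs. Cdkn1a, Ccng1, Zmat3 and Phlda3 rose in BECs and did not pass in HECs, although Cdkn1a, Zmat3 and Phlda3 passed as falls when only the HEC libraries were fitted. Leukocyte and epithelial markers rose and fibroblast and pericyte markers fell in the BEC tumour libraries. Digestion time and enzymes differed between the BEC groups and not between the HEC groups. For the immediate early genes the same difference was positive past 2-fold in 5 of 10 and negative in 1 (median log2 0.74). By the adjusted p it was negative in 8 of 10 proliferation genes and positive in none (median log2 −0.36). The part of these lists and of the digestion in the 6 differences was not tested.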

How the results depend on the processing

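Counting by the adjusted p alone, in place of the adjusted p and 2-fold together, moved the number among the 10 genes from 3 to 8 (HEC normal against BEC normal), 4 to 8 (HEC tumour against BEC tumour), 0 to 3 (HEC tumour against HEC normal), 1 to 7 (BEC tumour against BEC normal), 0 to 6 (difference of the tumour changes) and 2 to 7 (EO771). With both, a test against 2-fold left 0 in EO771. There, leaving out 1 replicate gave between 1 and 3, with 1 (Plk2) without vehicle replicate 2. Fitting only the HEC libraries raised the genes with an adjusted p under 0.05 from 3 to 7. The replicate block moved none of the 10 genes across either threshold, neither in the endothelial libraries nor in EO771 (Cdkn1a −1.26, Plk2 −1.22). Whether equal replicate numbers pair samples is not known. Signs turned only for differences near 0. On leaving out 1 replicate, Aen in HEC normal against BEC normal ran from −0.038 to 0.099, Ccng1 in EO771 from −0.033 to 0.33 and Perp in EO771 from −0.061 to 0.018. With total-count scaling Aen in HEC tumour against BEC tumour was 0.0078. The excess of Phlda3 in HEC normal passed 2-fold in 6 settings, with log2 1.00 to 1.03. The cause of these shifts was not tested beyond the libraries and thresholds they change.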
